A study of Mus musculus with 3 samples.

Results

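Of the 32285 genes in the tables, 53 are keratins, named Krt and a number, and 8 of these are described here: Krt5, Krt14, Krt15, Krt17, Krt7, Krt8, Krt18 and Krt19. They were chosen by name, as the keratins that mark simple, duct and basal epithelium, by a list that uses no measured value, though earlier results of these data were known. The tissue was the lacrimal gland (LG) of C57BL/6J mice at 2 months of age, with no treatment named. Each library was made from 6 LGs of 3 animals pooled, 1 library from females and 2 from males, so an SD over libraries describes pools and not single mice. The female library and the male libraries were prepared on different days at different core facilities, so sex cannot be told apart from day or core. A single female library also allowed no test of sex. Values are given in the order female library, male library 1, male library 2.

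Keratins are the intermediate filament proteins of epithelial cells. A filament is built from pairs of 1 acidic (type I) and 1 basic (type II) chain, so a cell needs at least 1 gene of each type. Among the members, Krt14, Krt15, Krt17, Krt18 and Krt19 are type I, and Krt5, Krt7 and Krt8 are type II. The pair Krt5 and Krt14 is typical of basal and myoepithelial cells, Krt15 and Krt17 accompany it in basal layers and in stressed epithelium, Krt8 and Krt18 form the filaments of simple secretory epithelium, and Krt7 and Krt19 are known from ducts.

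The type I members Krt15, Krt19, Krt14 and Krt17 lie on chromosome 11 within one keratin cluster, all on the minus strand (GRCm38, GENCODE vM21 positions). Krt15 spans chr11:100131758-100135928, Krt19 spans chr11:100140810-100148665, Krt14 spans chr11:100203162-100207548 and Krt17 spans chr11:100256217-100261029. The type II members lie on chromosome 15, with Krt7 at chr15:101411043-101430313 (plus strand), Krt5 at chr15:101707070-101712898 (minus strand) and Krt8 at chr15:101996698-102004482 (minus strand). Krt18 is the only type I member outside the chromosome 11 cluster. It lies at chr15:102028180-102032027 on the plus strand, 23697 bases from Krt8, and the pair is read away from each other.

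The promoters of Krt5, Krt8 and Krt18 are shown because these genes stood at opposite ends of the pattern described below: Krt5 was highest in duct-like cells, and Krt8 and Krt18 were highest together in Ltf+-like cells. Each sequence holds 300 bases, from 250 before to 50 after the start site (RefSeq, GRCm38.p6), 5′ to 3′ on the strand of the gene. Capitals mark matches to a TATA box (TATAAA) or an AP-2 motif (GCCNNNGGC). The windows are chr15:101712856-101713155 (minus strand) for Krt5, chr15:102004293-102004592 (minus strand) for Krt8 and chr15:102027966-102028265 (plus strand) for Krt18.
Krt5: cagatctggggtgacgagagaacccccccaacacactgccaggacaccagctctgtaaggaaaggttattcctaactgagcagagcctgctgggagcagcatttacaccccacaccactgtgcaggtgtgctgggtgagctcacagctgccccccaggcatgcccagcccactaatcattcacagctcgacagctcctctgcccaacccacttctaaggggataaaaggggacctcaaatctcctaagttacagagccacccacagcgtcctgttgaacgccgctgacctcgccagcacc
Krt8: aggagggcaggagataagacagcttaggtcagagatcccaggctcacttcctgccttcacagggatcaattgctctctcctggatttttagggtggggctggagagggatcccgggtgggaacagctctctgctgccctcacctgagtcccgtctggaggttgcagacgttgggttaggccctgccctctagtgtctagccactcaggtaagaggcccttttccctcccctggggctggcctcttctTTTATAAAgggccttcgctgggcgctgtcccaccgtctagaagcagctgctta
Krt18: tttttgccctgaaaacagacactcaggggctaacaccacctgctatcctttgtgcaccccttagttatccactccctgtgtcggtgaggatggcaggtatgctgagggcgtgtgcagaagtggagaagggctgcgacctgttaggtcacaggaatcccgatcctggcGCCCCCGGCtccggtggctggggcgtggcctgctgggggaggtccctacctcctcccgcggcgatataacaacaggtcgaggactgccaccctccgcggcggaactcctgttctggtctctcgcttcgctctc
The motifs TATAAA (the TATA box), TGANTCA (AP-1), GGGCGG (Sp1/KLF) and GCCNNNGGC (AP-2) were searched on both strands. The window of Krt8 held 2 overlapping TATA matches, 1 on each strand, and both span the RefSeq start site. That of Krt18 held 1 AP-2 match. That of Krt5 held no match to any of these motifs. Among 32851 promoter windows of the same length, 13.6% held TATAAA, 7.81% TGANTCA, 35.7% GGGCGG and 16.6% GCCNNNGGC, and a match describes letters only. RefSeq windows were matched for 5 of the 8 members. The RefSeq start sites of Krt8 and Krt18 lie 140 and 36 bases inside the GENCODE gene. Those of Krt14 and Krt7 lie 1518 and 1360 bases inside it and their windows are not shown, and Krt15, Krt17 and Krt19 had none.

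From 9737, 6422 and 6899 called barcodes, 7652, 5295 and 5397 cells were kept, with 55375501, 37754290 and 41316199 UMIs (unique molecular identifiers, 1 per captured transcript). Between 12 and 18 cell barcodes were shared by each pair of libraries. The median cell held 3254, 1885 and 1789 UMIs, and tear-product genes took 56.9%, 78.3% and 81.1% of all UMIs. Levels are therefore given as CPM (UMIs of a gene scaled to a fixed sum) over the UMIs outside tear-product and mitochondrial genes, summed over the cells of a class in a library. Each UMI is 1 tag of a transcript's 3′ end, so CPM can be compared between genes without scaling for length. In the last 500 bases of their transcripts Krt14 and Krt17 each share 81 of 470 stretches of 31 bases with other genes. These are each other, Krt16, Krt42 and Gm11597. Krt18 shares 49 with Gm5200 and Gm7943, and Krt7 shares 85 of 940 with many genes, Krt4, Krt73 and Krt79 among them. Reads from such stretches may be split or dropped.

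Cells were clustered without keratins, and no keratin was used to name a cluster. Of 8630 epithelial cells, 7503 fell in 6 classes named from their markers. Acinar-like cells (Lpo, Pigr, Bhlha15) numbered 485, 1220 and 1619 and belong to the tear-secreting units. Car6hi-like acinar cells numbered 75, 93 and 81, and Tfrchi-like acinar cells 80, 165 and 179. The Ltf+-like class (Ltf, Dmbt1, Sftpd) held 89, 409 and 412 cells, the duct-like class (Wfdc2, Gpha2, Ly6d, Ly6a, Cldn4) 1063, 328 and 273, and myoepithelial (MEC)-like cells, which wrap the acini and contract (Acta2, Cnn1, Myh11), 336, 322 and 274. Class sizes differ between libraries, so each level below was computed within a class.

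The duct-like and MEC-like classes carried the basal keratins Krt5, Krt14 and Krt17. In duct-like cells Krt5, the type II partner of the basal pair, stood at 1527, 1208 and 1186 CPM, a mean of 1307 ± 191 (SD, n = 3). In MEC-like cells it stood at 680, 622 and 585 CPM (629 ± 48.0). The lowest duct-like library lay above the highest MEC-like one, and acinar-like cells held only 10.4, 1.47 and 2.59 CPM. Krt14, the type I partner, was the most abundant keratin in both classes, at 2769, 3878 and 3970.3 CPM in duct-like cells and 1271, 2421 and 2346 CPM in MEC-like cells. Within each library the duct-like level of Krt14 was the higher one, and the female library was the lowest in both classes.

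Krt17, a type I keratin also known from stressed epithelium, followed at 1683, 2208 and 2302 CPM in duct-like cells and 403, 580.4 and 655 CPM in MEC-like cells. The classes did not overlap, and the mean of 2064 ± 334 CPM in duct-like cells stood beside 546 ± 130 CPM in MEC-like cells (SD, n = 3). Krt15, a basal type I keratin, was the scarcest of the basal group and the most concentrated in one class. It reached 167, 216 and 177 CPM in duct-like cells, 30.6, 17.2 and 13.9 CPM in MEC-like cells, and a mean of 0.593 CPM in acinar-like cells.

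In Ltf+-like cells the basal keratins differed between libraries. Krt5 was at 364, 9.66 and 15.4 CPM and Krt14 at 394, 32.2 and 82.4 CPM there, so the female library stood far above both male libraries. The female Ltf+-like class rests on 89 cells. When the libraries were clustered without integration, 23 of these 89 cells moved to the duct-like class, and these 23 cells held 218 of the 229 Krt5 UMIs and 230 of the 248 Krt14 UMIs. The 43 female cells that stayed Ltf+-like without integration had 33.1 CPM of Krt5 and 49.6 CPM of Krt14.

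Krt7, a type II keratin of ducts, was shared by duct-like and Ltf+-like cells. It stood at 499.99, 295 and 311 CPM in duct-like cells and at 419, 245 and 225 CPM in Ltf+-like cells. These ranges overlapped, with means of 369 ± 114 and 296 ± 107 CPM (SD, n = 3). MEC-like cells held less, at 89.5, 103 and 97.6 CPM, and acinar-like cells 5.59, 2.36 and 2.88 CPM.

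Krt19, the smallest type I keratin, was low throughout. It reached 102, 30.3 and 69.7 CPM in duct-like cells, 257, 17.7 and 25.7 CPM in Ltf+-like cells and 25.9, 30.9 and 41.8 CPM in MEC-like cells. The order of these 3 classes was not fixed: Ltf+-like cells were highest in the female library and lowest in both male libraries. Of the 162 Krt19 UMIs in female Ltf+-like cells, 89 lay in the 23 cells that moved to the duct-like class without integration. Acinar-like cells held 1, 0 and 1 Krt19 UMIs.

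Krt8 and Krt18, the pair of simple epithelium, were highest in Ltf+-like cells. Krt8, the type II partner, stood there at 1306, 2729 and 2647 CPM, against 193, 613 and 612 CPM in acinar-like cells. The lowest Ltf+-like library lay above the highest library of any other class. Krt18, the type I partner, stood at 2035, 3716 and 3527 CPM in Ltf+-like cells and 396, 608 and 616 CPM in acinar-like cells, again without overlap. Both genes were also present in Car6hi-like cells, Krt8 at 226, 904 and 912 CPM and Krt18 at 407, 1173 and 965 CPM, and these ranges overlapped those of acinar-like cells.

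In the basal keratin classes the simple pair did not run in parallel. Duct-like cells held 320, 307 and 467 CPM of Krt8 and 298, 367 and 413 CPM of Krt18, a Krt18 to Krt8 ratio of 1.00 ± 0.17 (SD, n = 3). MEC-like cells held a similar amount of Krt8, 324, 505 and 548 CPM, but only 74.2, 137 and 177 CPM of Krt18, a ratio of 0.274 ± 0.047. That Krt18 level lay within the range of cells that do not form keratin filaments: fibroblast-, endothelial-, myeloid- and lymphoid-like cells held 33.7 to 75.7 CPM in the female library and 76.3 to 235 CPM in the male libraries. Krt8 in the same cells ranged from 18.1 to 28.9 and from 73.3 to 199 CPM. In barcodes with 10 to 100 UMIs, which hold mostly free RNA, Krt8 stood at 49.1, 556 and 785 CPM (1, 24 and 25 UMIs) and Krt18 at 147, 881 and 1098 CPM (3, 38 and 35 UMIs), in the male libraries as high as in acinar-like cells. With the UMIs expected from this free RNA subtracted, duct-like cells kept 365, 218 and 337 CPM of Krt8 and 321, 193 and 150.1 CPM of Krt18, so the Krt18 level of the male libraries fell by more than that of Krt8. MEC-like cells then held 60.6, 0 and 0 CPM of Krt18, and Tfrchi-like cells of male library 2 held 0. The estimate rests on the few UMIs just given. In duct-like, MEC-like and Ltf+-like cells it takes every UMI of Scgb, Obp, Esp, Mucl2, Pip and Lcn11 genes as free RNA. The acinar classes were instead given the free RNA per cell found in fibroblast-like cells.

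**Figure D1:**
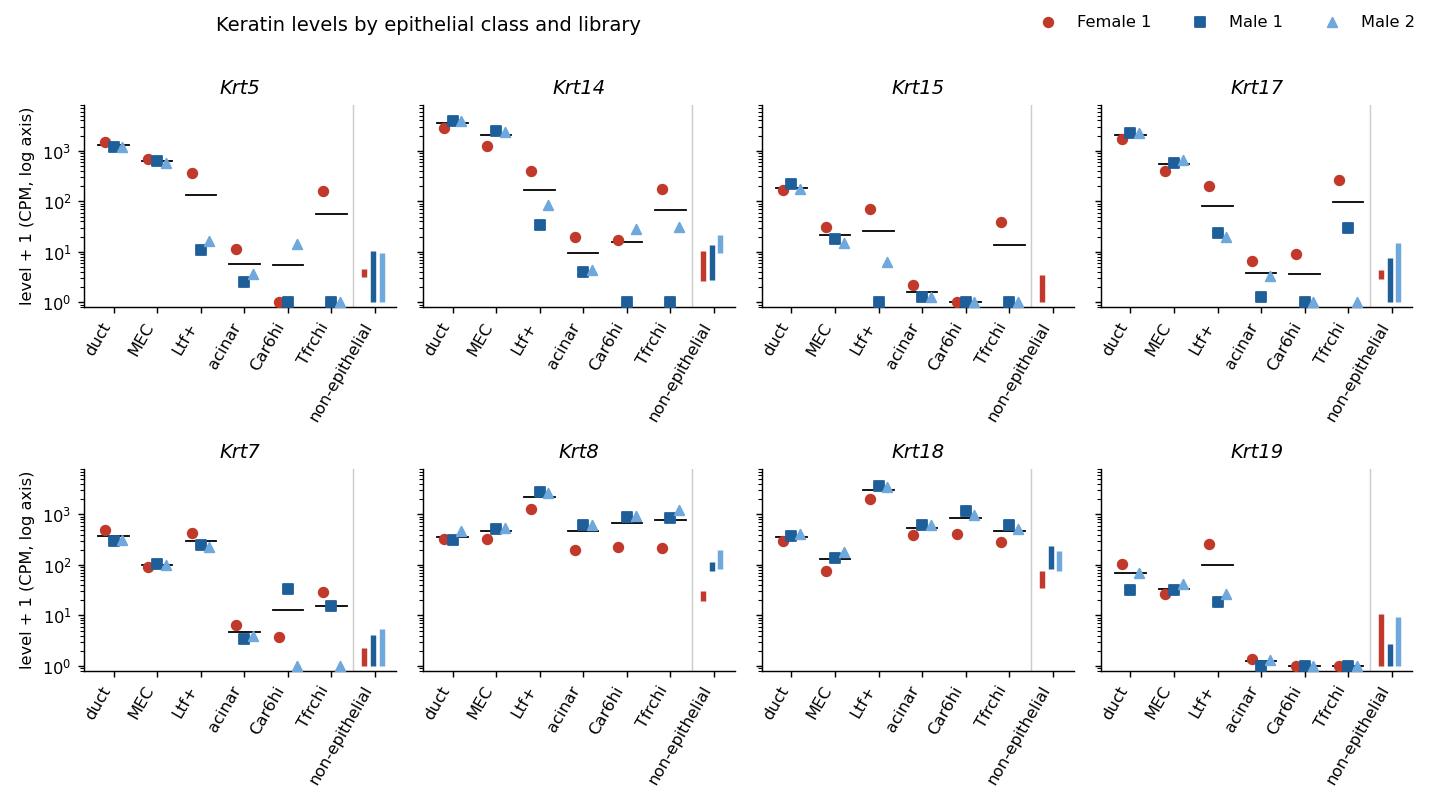
CPM + 1 over UMIs outside tear-product and mitochondrial genes (vertical axis, log scale) of each of the 8 keratins in each epithelial class, with 1 point per library, a line at the mean over 3 libraries, and at the right a bar per library for the range over non-epithelial classes. Krt5, Krt14, Krt15 and Krt17 peak in duct-like cells, Krt8 and Krt18 in Ltf+-like cells, and Krt7 reaches 369 CPM in duct-like and 296 CPM in Ltf+-like cells.

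Differences between classes were tested with edgeR's quasi-likelihood test on UMIs summed per class and library, with each library as a block. Adjusted p-values follow Benjamini and Hochberg over 7202 genes. The p-values measure the spread of class levels over these libraries that is left once the block takes out differences between libraries. Values are log2 fold changes ± SE, scaled by TMM, which sets the bulk of genes near 0.

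Between duct-like and acinar-like cells, 6 of the 8 keratins were called higher and 2 lower, where 29.9% of all genes tested were called higher and 27.7% lower. The median log2 fold change was 6.81 for the members and 0.03 for all genes. Krt17 differed by 8.95 ± 0.73, Krt14 by 8.26 ± 0.73 and Krt5 by 7.58 ± 0.71 (adjusted p = 4.8e-11, 2.1e-10 and 5.6e-10, edgeR). Krt7 differed by 5.81 ± 0.32, with the narrowest error of the 6. Krt15 and Krt19 were also called higher, by 7.18 ± 0.68 and 6.44 ± 0.87, but their fold rests on a few acinar UMIs. With UMIs pooled over libraries and no block, the level was 322 times that of acinar-like cells for Krt15 (exact 95% interval 137 to 995, 575 against 5 UMIs). For Krt19 it was 444 times (122 to 3679, 317 against 2 UMIs). The female library weighs most in these pooled duct-like levels, with 2898056 UMIs outside tear-product and mitochondrial genes against 264076 and 186386.

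Krt8 and Krt18 were the members called lower in duct-like cells, by -0.996 ± 0.24 (adjusted p = 0.000883) and -1.42 ± 0.22 (adjusted p = 2.9e-06, edgeR). Their direction depends on the scaling, since acinar-like cells spend most of their UMIs on tear products: scaled to all UMIs, which moves the median of all genes to 2.69, Krt8 differed by 1.65 and Krt18 by 1.22, higher in duct-like cells. Scaled to the UMIs outside tear-product and mitochondrial genes (median of all genes 0.94), Krt8 differed by -0.12 (adjusted p = 0.705) and Krt18 by -0.54 (adjusted p = 0.0306, edgeR). On each of these scales both lay below the median of all genes. Without male library 1 the Krt8 difference was -0.75 (adjusted p = 0.0551, edgeR) with TMM.

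MEC-like cells differed from acinar-like cells in the same pattern of calls, 6 keratins higher and 2 lower, where 30.9% of genes were called higher and 28.9% lower. Krt14 was the furthest apart, by 7.42 ± 0.71, before Krt17 (6.94 ± 0.71), Krt5 (6.47 ± 0.69), Krt15 (4.01 ± 1.01) and Krt7 (3.74 ± 0.36). Krt19 was higher by 5.11 ± 1.07. With UMIs pooled over libraries (40 against 2) it stood at 138 times the acinar-like level (exact 95% interval 35.9 to 1181). Krt18 was lower by -3.05 ± 0.24 (adjusted p = 2.3e-11, edgeR). Krt8 was lower by -0.80 ± 0.24 (adjusted p = 0.00547, edgeR) with TMM, but was higher by 1.95 when scaled to all UMIs and by 0.11 (adjusted p = 0.738) when scaled to the UMIs outside tear-product and mitochondrial genes. The Krt8 call was also lost without male library 1 (-0.71, adjusted p = 0.0669) and without male library 2 (-0.75, adjusted p = 0.0785, edgeR).

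All 8 keratins were called higher in Ltf+-like than in acinar-like cells, where 20.8% of genes were called higher and 20.4% lower. Krt8 differed by 1.502 ± 0.24 (adjusted p = 9.0e-06) and Krt18 by 1.64 ± 0.21 (adjusted p = 4.5e-07, edgeR; 1.98 and adjusted p = 0.0574 with free RNA subtracted), and Krt7 by 5.504 ± 0.31. That subtraction took 78.8%, 63.6% and 77.5% of all Ltf+-like UMIs as free RNA. Per cell this came to 14157, 2603 and 3803 UMIs of free RNA in Ltf+-like cells, against 1434, 1074 and 1015 in duct-like cells of the same libraries. The subtraction assumes that Ltf+-like cells make none of the tear products it counts, which was not tested. Krt19, with 188 against 2 UMIs pooled over libraries, stood at 481 times the acinar-like level (exact 95% interval 131 to 3998). Of these 188 UMIs, 162 came from the female library. Its fitted log2 fold change was 7.08 ± 0.78, and 5.58 without that library. The basal keratins differed by 3.38 ± 0.65 (Krt14) to 4.33 ± 0.91 (Krt15). The Krt15 call was lost without the female library (1.959, adjusted p = 0.165, edgeR). Without integration of the libraries 4 keratins were called higher, and Krt5 (-1.39), Krt14 (-1.66) and Krt17 (-0.74) fell to the other side of 0 without being called.

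Duct-like and MEC-like cells both carried the basal keratins and differed in how much. Of the 8 keratins 4 were called higher in duct-like cells and none lower, where 8.58% of genes were called higher and 10.0% lower. Krt15 differed by 3.17 ± 0.56 (adjusted p = 0.000125), Krt7 by 2.06 ± 0.28 (adjusted p = 1.7e-06), Krt17 by 2.01 ± 0.50 (adjusted p = 0.00436) and Krt18 by 1.63 ± 0.24 (adjusted p = 8.4e-06, edgeR). Krt5 differed by 1.11 with an approximate 95% interval of 0.10 to 2.12 (adjusted p = 0.157), and Krt14 by 0.84 with an interval of -0.17 to 1.84 (adjusted p = 0.3204, edgeR). Both were called higher without the female library, at 1.07 and 0.81, and Krt17 lost its call under 4 alternatives, among them DESeq2 (adjusted p = 0.259). Krt19 differed by 1.32 (adjusted p = 0.152) and was called without male library 1 (1.67, adjusted p = 0.0385, edgeR).

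Set against Ltf+-like cells, duct-like cells were called higher for 4 keratins and lower for 2, where 15.1% of genes were called higher and 15.4% lower. Krt17 differed by 5.03 ± 0.60, Krt14 by 4.88 ± 0.63, Krt5 by 4.05 ± 0.60 and Krt15 by 2.86 ± 0.50. Krt8 was lower by -2.50 ± 0.25 and Krt18 by -3.06 ± 0.23 (adjusted p = 1.3e-08 and 8.8e-11, edgeR). Krt7 differed by 0.30 with an interval of -0.15 to 0.76 (adjusted p = 0.355, edgeR) and was called higher in duct-like cells without the female library (0.51, adjusted p = 0.00976). Krt19 differed by -0.64 (adjusted p = 0.322, edgeR) and by 1.30 (adjusted p = 0.0374) without the female library, so its direction rests on that library.

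Between Ltf+-like and MEC-like cells, 4 keratins were called higher and 3 lower, where 19.4% of genes were called higher and 19.6% lower. Krt18 differed by 4.69 ± 0.25, Krt8 by 2.30 ± 0.25 and Krt7 by 1.76 ± 0.27, all higher in Ltf+-like cells. Krt19 was called higher too (1.97 ± 0.56), but stood at -0.81 (adjusted p = 0.214) without the female library. Krt14 was lower by -4.04 ± 0.62, Krt17 by -3.03 ± 0.58 and Krt5 by -2.94 ± 0.60. Krt15 differed by 0.31 (adjusted p = 0.764, edgeR), and by -2.61 (adjusted p = 0.0211) without the female library.

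The 2 acinar subsets were set against the other acinar-like cells. In Car6hi-like cells no keratin was called by edgeR (0 at an unadjusted p under 0.05), where 3.07% of genes were called higher and 3.75% lower. Krt8 differed by 0.23, with an interval of -0.25 to 0.72, and Krt18 by 0.31, with an interval of -0.12 to 0.74. Both were called higher without the female library (0.48 and 0.73). In Tfrchi-like cells Krt17 was called higher (4.14 ± 1.01) and Krt18 lower (-1.36 ± 0.24), where 13.8% of genes were called higher and 22.1% lower. The Krt17 call rests on the female library, whose 80 cells held 258 CPM against 28.6 and 0 CPM in the male libraries, and stood at 2.64 (adjusted p = 0.109, edgeR) without it; without male library 1 the number called higher was 2. The Krt18 difference is higher by 0.86 when scaled to all UMIs, which moves the median of all genes to 1.97.

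**Figure D2:**
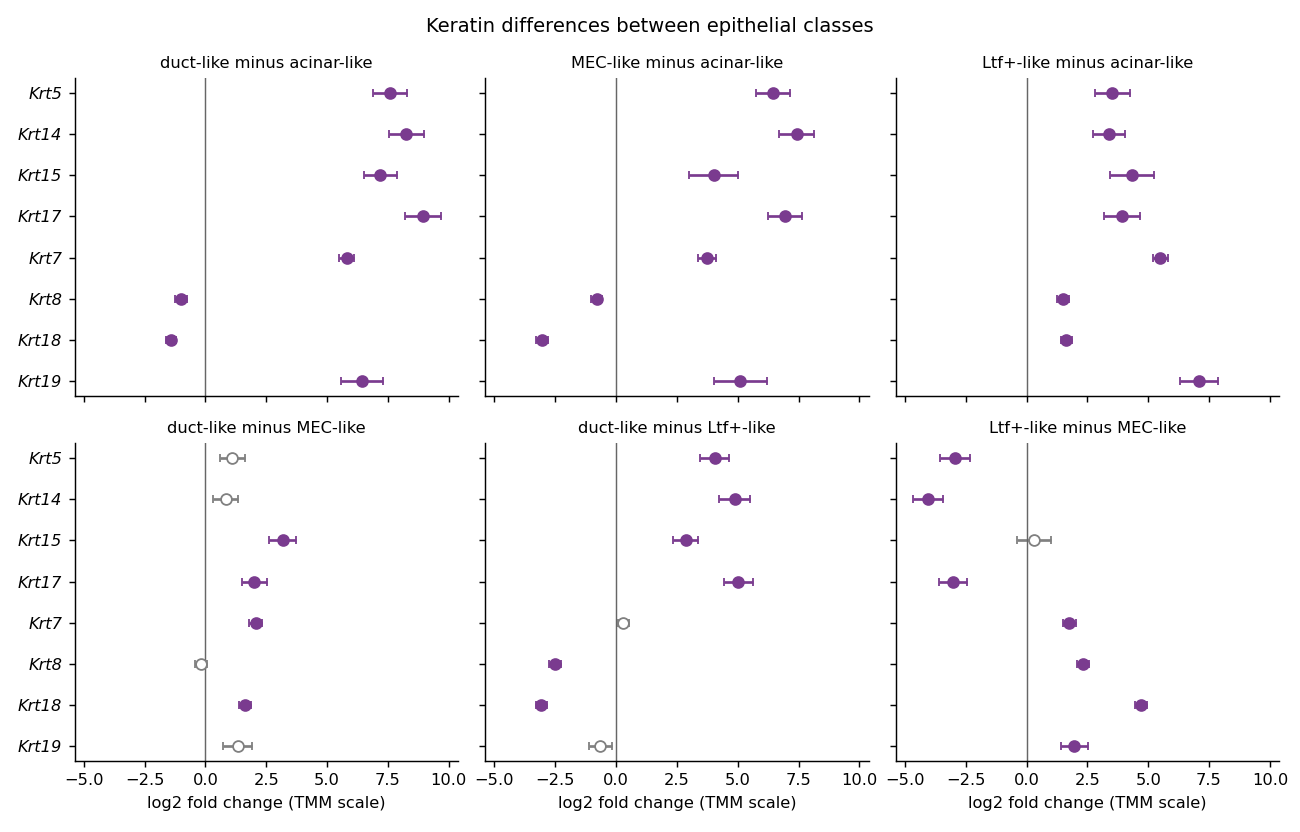
Log2 fold change (horizontal axis, edgeR with TMM) of each keratin in 6 comparisons of classes, with bars of ± 1 SE, filled points where the adjusted p passed 0.05 and open points where it did not. Krt5, Krt14, Krt15 and Krt17 lie right of 0 where duct-like cells are compared with acinar-like or Ltf+-like cells, and Krt8 and Krt18 lie left there on this scale, which for the acinar comparison turns to the right when scaled to all UMIs.

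As shares of the summed keratin UMIs, the classes had distinct repertoires. In duct-like cells Krt14 took 42.6% ± 4.4, Krt17 24.9% ± 1.8 and Krt5 16.1% ± 4.0 (SD, n = 3). MEC-like cells held 50.4% ± 5.8 of Krt14, 16.9% ± 5.7 of Krt5 and 13.9% ± 0.77 of Krt17. In Ltf+-like cells Krt18 took 49.7% ± 8.1 and Krt8 35.5% ± 8.4, with Krt18 ahead in each library. In acinar-like cells Krt18 took 62.8%, 49.5% and 49.7% and Krt8 30.6%, 49.9% and 49.4%, so the pair was level in the male libraries and Krt18 led in the female library. The 4 basal keratins together took 85.8% ± 2.4 of keratin UMIs in duct-like and 81.8% ± 0.99 in MEC-like cells.

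The whole set also differed in size and in the balance of chains. Keratins made up 0.826% of UMIs outside tear-product and mitochondrial genes in duct-like cells, 0.612% in Ltf+-like, 0.393% in MEC-like and 0.103% in acinar-like cells. Type I UMIs outnumbered type II UMIs by 3.12 ± 0.86 to 1 in duct-like cells and 2.29 ± 0.55 to 1 in MEC-like cells, but by 1.32 ± 0.08 to 1 in Ltf+-like cells. In duct-like cells the ratio was 2.14, 3.70 and 3.53, so the male libraries held relatively more type I. The Krt14 to Krt5 ratio was 2.79 ± 0.85 in duct-like and 3.26 ± 1.20 in MEC-like cells. Transcript ratios say nothing of protein balance.

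**Figure D3:**
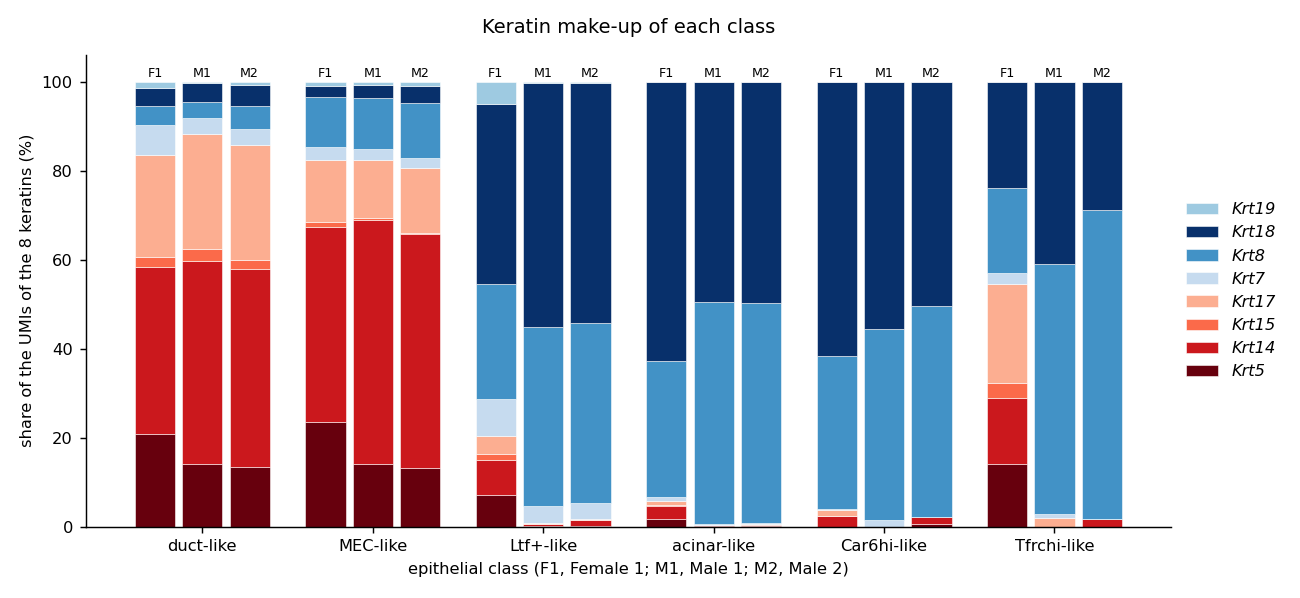
Share of the summed UMIs of the 8 keratins (vertical axis, percent) taken by each keratin, as 1 stacked bar per library in each epithelial class. Krt14, Krt17 and Krt5 fill most of the duct-like and MEC-like bars, Krt18 and Krt8 fill the acinar-like and Ltf+-like bars, and the female Ltf+-like and Tfrchi-like bars hold more of the basal keratins than the male ones.

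Cell by cell, a part of the duct-like cells held UMIs of both the basal and the simple pair. Each cell was thinned to 500 UMIs outside tear-product and mitochondrial genes, so that depth did not differ between libraries or classes. Shallower cells were left out, 0, 32 and 52 of the duct-like, 1, 34 and 44 of the MEC-like and 4, 41 and 62 of the Ltf+-like cells. Other classes lost more in the male libraries. Of 80, 165 and 179 Tfrchi-like cells 80, 34 and 17 were kept, and of 771, 292 and 432 lymphoid-like cells 761, 120 and 91. Of duct-like cells 61.3%, 65.5% and 62.0% held a UMI of the basal pair (Krt5 or Krt14) and none of the simple pair (Krt8 or Krt18), 23.0%, 23.6% and 28.5% held both, 4.80%, 2.70% and 3.62% the simple pair alone, and 10.9%, 8.11% and 5.88% neither. MEC-like cells were basal alone in 48.7%, 53.1% and 53.5% and both in 11.9%, 17.4% and 16.5%. Ltf+-like cells were simple alone in 57.6%, 91.8% and 89.1% and held both in 8.24%, 1.36% and 2.00%.

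Acinar-like cells held the simple pair alone in 27.8%, 49.3% and 50.1% of cells. Background shares of the same state, in cells that should lack keratins, were 2.24%, 8.52% and 8.06% in fibroblast-like cells, 3.12%, 9.0% and 15.7% in endothelial-like cells and 4.47%, 15.0% and 19.8% in lymphoid-like cells. The duct-like share with both pairs lay above these shares in every library, but it counts another state. Whether the basal and simple pairs met in a cell more often than independent detection would give was not worked out. The part of free RNA in the state of single cells was not tested, but of the summed male duct-like UMIs 36.5 of 81 and 40.1 of 87 for Krt8, and 57.8 of 97 and 56.1 of 77 for Krt18, were expected from free RNA. Without thinning the share with both was 76.3%, 36.9% and 37.4%, with the deeper female cells far above.

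Single genes followed the same order. Krt14 was seen in 70.7%, 82.1% and 86.0% of duct-like cells and in 47.5%, 62.9% and 59.6% of MEC-like cells. Krt5 was seen in 49.95%, 41.9% and 43.0% of duct-like cells, and Krt17 in 49.95%, 51.0% and 56.1%. Krt18 was seen in 5.97%, 5.90% and 6.09% of MEC-like cells. Fibroblast-, endothelial-, myeloid- and lymphoid-like cells held it in 1.45% to 3.94% of cells in the female library and 4.33% to 10.8% in the male libraries, so the male MEC-like shares lay within the background and the female one above it. Krt5 was seen in at most 0.333% and Krt14 in at most 0.833% of those cells. Without thinning Krt14 was seen in 98.0%, 90.9% and 86.1% of duct-like cells and Krt5 in 96.0%, 55.8% and 53.5%.

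**Figure D4:**
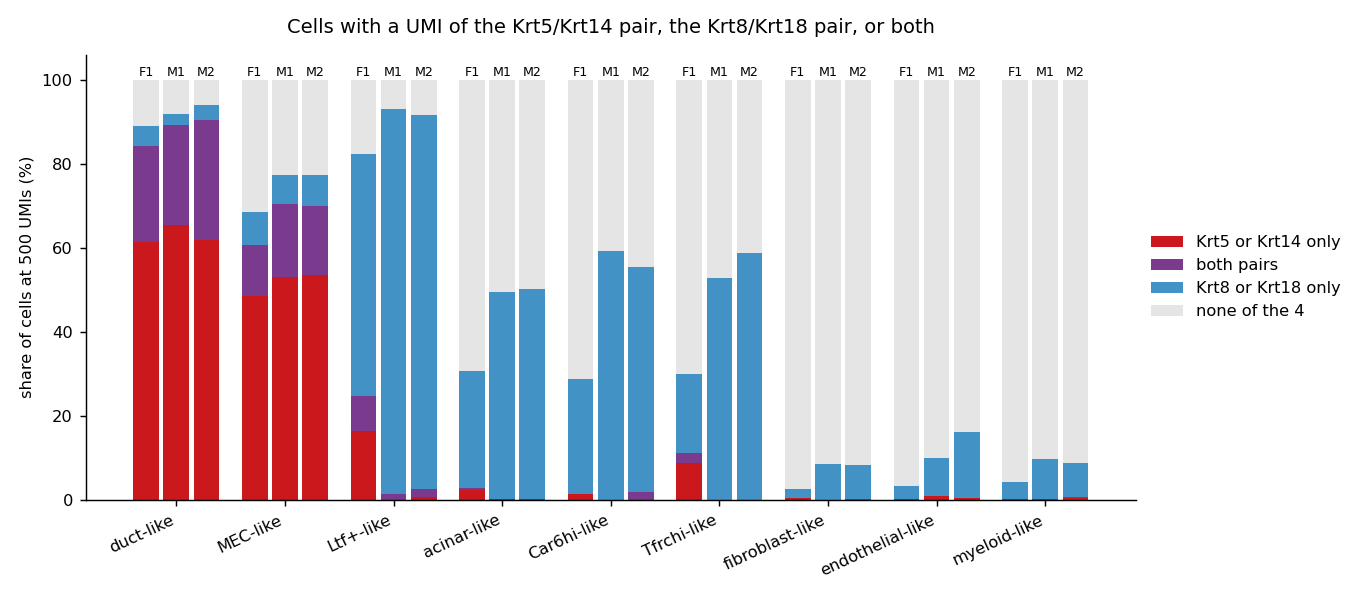
Percent of cells (vertical axis) with UMIs of the basal pair (Krt5 or Krt14) alone, the simple pair (Krt8 or Krt18) alone, both or neither, at 500 UMIs per cell, as 1 stacked bar per library in 6 epithelial and 3 non-epithelial classes. Duct-like and MEC-like bars are mostly basal, with means of 25.0% and 15.3% of cells in the both state, and Ltf+-like bars are mostly simple.

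Pairs of keratins were compared with the product of their own shares, which is what independent detection would give, as a description with no test. In duct-like cells 6 of the 28 pairs were seen together more often than this in every library. How many pairs independent detection would put above 1 in every library was not worked out. Krt5 with Krt14 stood at 1.03, 1.01 and 1.04 times the product and Krt14 with Krt17 at 1.04, 1.05 and 1.02, close to 1. Krt17 with Krt7 stood at 1.14, 1.19 and 1.09. Krt17 with Krt19 stood at 1.29, 1.57 and 1.56, from 31, 4 and 7 cells.

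Krt15 was seen with the simple pair in few duct-like cells, with Krt8 at 0.93, 0.64 and 0.31 times the product (10, 2 and 1 cells) and with Krt18 at 0.59, 0.90 and 0.35 times (6, 3 and 1 cells). The partners Krt8 and Krt18 were seen together at 0.78, 1.41 and 1.55 times the product in duct-like cells and at 1.22, 1.03 and 1.06 times in Ltf+-like cells.

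Within the duct-like class 6 clusters were found without keratins, and the means of Krt17, Krt7, Krt19 and Krt15 varied among them. Only 1 of these clusters could be named luminal duct and none basal duct, so each is given by its leading genes and levels are descriptions. Krt17 was highest in the cluster led by Gadd45b and Edn2, at 2564, 3862 and 3542 CPM, against 1573, 1615 and 1555 CPM in the cluster led by Kcnj16 and Cxcl17. Dissociation stress genes took 7.3%, 6.2% and 6.2% of the non-tear UMIs in the first cluster and 1.1%, 1.1% and 1.0% in the second, and their part in the Krt17 level was not tested. Krt7 was lowest in the cluster led by Tagln and Igfbp2 (349, 128 and 233 CPM) and higher in the cluster led by Sprr1a (585, 516 and 603 CPM). Krt19 stood at 162, 56.3 and 207 CPM in the Kcnj16 cluster (111, 3 and 6 UMIs). In the Tagln cluster it stood at 51.3, 23.3 and 19.4 CPM (34, 2 and 1 UMIs), so the male values rest on few UMIs. Krt15 ran the other way, at 169 ± 34.5 CPM (112, 11 and 4 UMIs) and 262 ± 52.4 CPM (137, 23 and 16 UMIs).

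**Figure D5:**
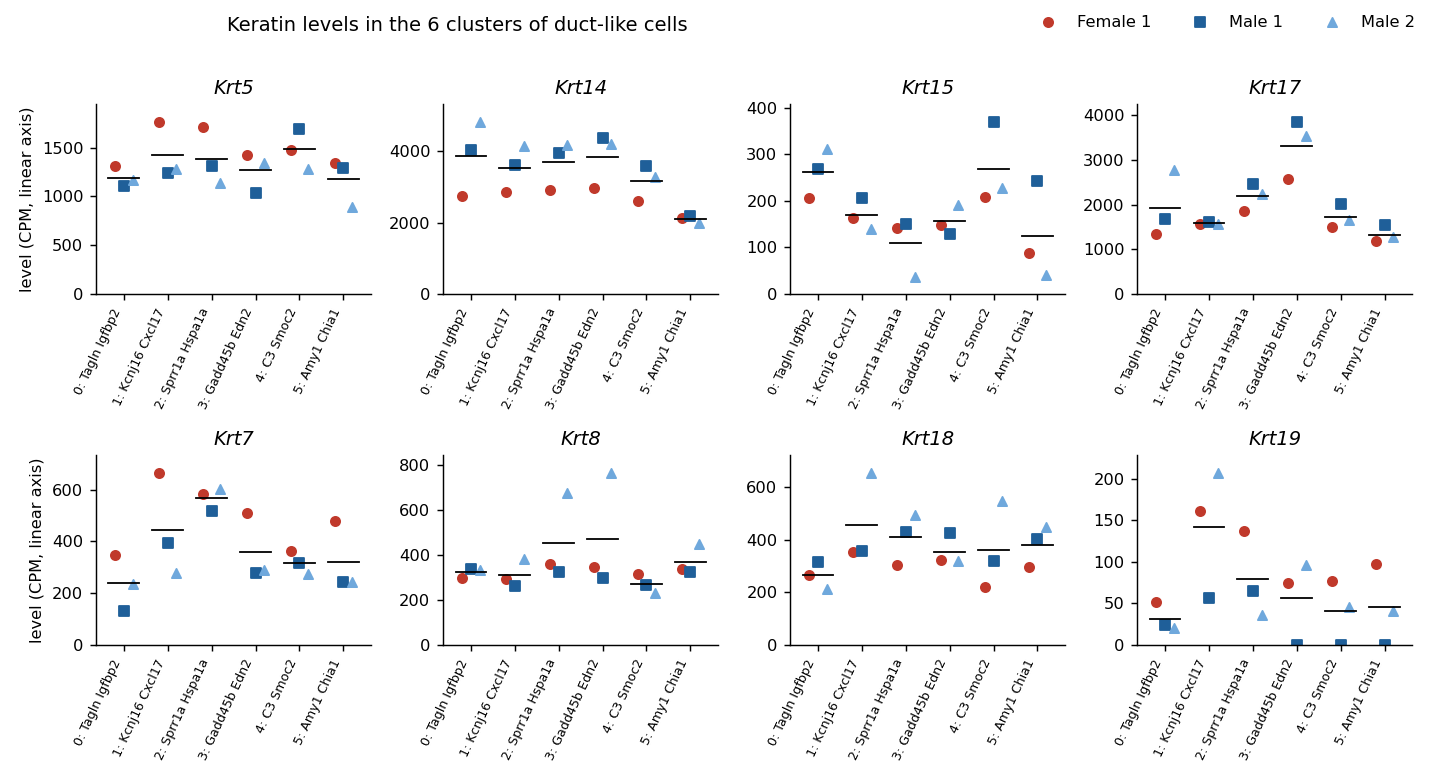
CPM (vertical axis, linear) of each keratin in the 6 clusters of duct-like cells, each named by 2 leading genes, with 1 point per library and a line at the mean over 3 libraries. Krt17 is highest in the Gadd45b cluster in each library, and Krt19 has its highest mean in the Kcnj16 cluster.

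The Ltf+-like class held 2 clusters that differed in Krt7 and Krt19. In the larger one, led by Dcpp1 and Pglyrp1, Krt7 stood at 102, 134 and 117 CPM and Krt19 at 29.1, 0 and 5.6 CPM (8, 0 and 2 UMIs). In the smaller one, led by Dmbt1 and Fcgbp, Krt7 stood at 666, 395 and 397 CPM and Krt19 at 434, 41.7 and 57.9 CPM (154, 11 and 13 UMIs). Every library was higher in the smaller cluster for both genes. In MEC-like cells the smaller cluster, led by Hgf and Nrg1, held less Krt14 (695, 1551 and 1115 CPM) than the larger (1290, 2461 and 2489 CPM).

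Of the other 45 keratin rows, 3 reached the minimum for naming and 26 held no UMI in the 6 named epithelial classes. Krt23 stood at 149 ± 52 CPM in Ltf+-like, 88.6 CPM in MEC-like and 8.86 CPM in duct-like cells. Its mean was 98.7 CPM in Car6hi-like (33, 18 and 1 UMIs), 50.1 CPM in Tfrchi-like and 30.6 CPM in acinar-like cells. Krt80 was highest in Ltf+-like cells (29.6 ± 6.1 CPM, against 9.78 in duct-like cells), and Krt10 was at 36.9 CPM in duct-like and 35.4 CPM in Ltf+-like cells. In these 6 classes, without the unnamed epithelial cells, the 8 members held 52145 keratin UMIs and the other rows 1418, so the members made up 97.4%.

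Keratin filaments are anchored in desmosomes, which join cells, and hemidesmosomes, which join cells to the basement membrane. Of 27 genes for these and other intermediate filaments, 23 were tested, and Dsg3, Evpl, Des and Nes were not. Between duct-like and acinar-like cells 19 of 23 were called higher and none lower (29.9% and 27.7% of all genes), with 8 of 10 desmosome genes and all 9 hemidesmosome genes higher. The largest changes were in Dsc3 (a desmosomal cadherin, 7.41), Col17a1 (7.34), Lama3 (7.14) and Lamb3 (6.37), the last 3 of the hemidesmosome and its laminin. MEC-like cells were called higher than acinar-like cells for 21 and lower for 1 (30.9% and 28.9% of all genes), led by Lama3 (7.85) and Dsc3 (7.83).

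In Ltf+-like against acinar-like cells 15 of 23 were called higher and none lower (20.8% and 20.4% of all genes), led by Ppl (periplakin, 4.94). Duct-like against MEC-like cells gave 3 of 23 higher and 3 lower, close to the 8.58% and 10.0% of all genes, among them the filament genes Synm (-5.37) and Vim (-2.60), lower in duct-like cells. Duct-like cells were called higher than Ltf+-like cells for 12 genes and lower for 1 (15.1% and 15.4% of all genes), with all 9 hemidesmosome genes higher. Ltf+-like cells were called lower than MEC-like cells for 15 and higher for 2 (19.6% and 19.4% of all genes). In Car6hi-like cells 1 gene of 23 was called higher, Itgb4 (1.89), near the 3.07% of all genes. In Tfrchi-like cells Dst (1.54) and Itga6 (1.22) were called higher and Lmna (-1.58) lower, smaller shares of the 23 than the 13.8% and 22.1% of all genes.

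The non-keratin gene whose level followed each member most closely over 18 class-and-library values was S100a6 for Krt14 (r = 0.986), Timp3 for Krt17 (0.981), Ang for Krt5 (0.979), Fbln1 for Krt15 (0.979), Ece1 for Krt7 (0.980), Taldo1 for Krt18 (0.939), Ldha for Krt19 (0.903) and Ltf for Krt8 (0.883). Ltf was a marker used to name the Ltf+-like class. Among the members, Krt5 and Krt14 followed each other at r = 0.976, Krt7 and Krt19 at 0.890 and Krt8 and Krt18 at 0.787, while Krt5 and Krt18 ran at -0.504. These values share libraries and classes, so they are descriptions with no test.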

How the data were processed

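Single-cell libraries (10x 3′ v3.1) were mapped to mm10 with Cell Ranger 6.1.2 per the labels, and the values used are the deposited filtered UMI count matrices, unnormalized, with the number of UMIs as the counts. The annotation release is not given in the sources used here, and the headers of the unfiltered matrices name another Cell Ranger version.

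Cells with at least 500 UMIs, 200 genes and under 15% mitochondrial UMIs were kept, and the cells with the highest doublet scores (scanpy 1.11.5), 0.8% per 1000 cells, were removed. Seurat 5.3.0 clustered the cells after integration of the libraries on 3000 features, with keratins, tear-product, mitochondrial, ribosomal, hemoglobin and sex-linked genes left out, at resolution 1. Clusters were named from non-keratin markers, with at least 3 markers raised; a cluster led by immune genes was left unnamed by a rule chosen after the clusters were seen. UMIs were summed per class and library, and edgeR 4.0.16 (R 4.3.3; TMM, filterByExpr, glmQLFTest, threshold 0.05) fitted all 6 classes with the library as a block, because classes of 1 library come from the same cell suspension. The SE is the log2 fold change over the square root of F. The fit was tested on simulated data. DESeq2 1.42.0, other scalings, filters, thinnings and clusterings were tried, and scaling to the UMIs outside tear-product and mitochondrial genes was chosen after seeing the data.

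The members and lists were chosen with earlier results of these data known. Named are the 8 members, other keratins with at least 10 UMIs in a class of each library, the closest non-keratin genes by r of log2(CPM + 10) (of the 3 found for each member the first is printed), among genes of mean CPM 20 or more, and the 4 largest called changes of a list of 27 filament and junction genes. Basal and luminal duct cells were not compared, since no cluster could be named basal duct. Intervals and counts of UMIs cover counting error only.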

Additional observations from a re-analysis of the deposited data

Results flagged for a closer look

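In 4 comparisons the female library moved one way and both male libraries the other, and with 1 female library the difference was not tested; sex, day and core facility cannot be told apart in it. Ratios here are log2 ratios of CPM + 10, with CPM over UMIs outside tear-product and mitochondrial genes. The added 10 CPM makes ratios of low levels, as for Krt19, smaller in size than those of the CPM alone. In the order female library, male library 1 and male library 2, Krt8 in duct-like over acinar-like cells stood at 0.70, -0.98 and -0.38. Krt8 in MEC-like over acinar-like cells stood at 0.72, -0.27 and -0.16. The acinar-like level of Krt8 was 193 CPM in the female library and 613 and 612 CPM in the male libraries, while the duct-like level was 320, 307 and 467 CPM.

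Krt19 in duct-like over Ltf+-like cells stood at -1.25, 0.54 and 1.16, and in Ltf+-like over MEC-like cells at 2.90, -0.56 and -0.54. The female Ltf+-like class held 89 cells with 162 Krt19 UMIs, of which 89 UMIs lay in 23 cells that joined the duct-like class when the libraries were not integrated. The 43 cells that stayed Ltf+-like held 241 CPM of Krt19, close to the 257 CPM of the whole female class and above the male 17.7 and 25.7 CPM.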

How the results depend on the processing

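The 6 keratins called higher than in acinar-like cells, in duct-like and in MEC-like cells, stayed 6 or more under each alternative run. The keratins called lower in duct-like than acinar-like cells (Krt8 and Krt18, 2 in all) were 0 when scaled to total UMIs and 1 when scaled to UMIs outside tear-product and mitochondrial genes, and 1 to 2 with each library left out. In MEC-like against acinar-like cells the count of 2 lower was 1 with DESeq2, with free RNA subtracted, without integration and scaled to UMIs outside tear-product genes, 0 scaled to total UMIs, and 1 to 2 with each library left out. Scaled to total UMIs, Krt8 turned to 1.65 and Krt18 to 1.22 in duct-like against acinar-like cells, Krt8 to 1.95 in MEC-like cells, and Krt8 to 1.74 and Krt18 to 0.86 in Tfrchi-like cells, Krt19 to 0.42 in duct-like against Ltf+-like and Krt15 to -0.69 in Ltf+-like against MEC-like cells. Scaled to UMIs outside tear-product and mitochondrial genes Krt8 turned to 0.11 in MEC-like and 0.65 in Tfrchi-like against acinar-like cells.

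Without integration, the keratins called higher in Ltf+-like than acinar-like cells were 4 in place of 8, with Krt5 at -1.39, Krt14 at -1.66 and Krt17 at -0.74. Ltf+-like against MEC-like Krt15 turned to -3.41 without integration and -0.82 with DESeq2, and Tfrchi-like Krt17 to -0.54 without integration. Without any filter on low counts 7 keratins in place of 4 were called higher in duct-like than MEC-like cells, and Car6hi-like Krt8 stood at -0.014. DESeq2 set Tfrchi-like Krt8 at 0.0062. In Car6hi-like cells 2 keratins in place of 0 were called higher when scaled to total UMIs, and 0 to 2 with each library left out. In Tfrchi-like cells the 1 called higher was 7 with total UMIs, 4 without the low-count filter and with UMIs outside tear-product genes, 0 with a mitochondrial share under 5% and without integration, and 0 to 2 with each library left out. The 1 called lower there was 0 with total UMIs, with UMIs outside tear-product genes and without integration, and 2 without the low-count filter.

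Each library left out in turn gave -1.07 to 1.30 for Krt19 in duct-like against Ltf+-like cells, -2.61 to 0.86 for Krt15 and -0.81 to 2.57 for Krt19 in Ltf+-like against MEC-like cells, and -0.88 to 0.046 for Krt8 in Tfrchi-like cells. The female library set the changed sign each time. Of 28 keratin pairs in duct-like cells the 6 seen together more often than the product were 14 without thinning and 8 to 12 with each library left out. A pair is counted if it exceeds the product in every library kept, so leaving a library out cannot lower that count. The cause of the other shifts was not tested. The fit with no replicate block, in place of the library as a block, called 1 keratin lower in place of 2 in both duct-like and MEC-like against acinar-like cells, and 3 in place of 4 higher in duct-like against MEC-like cells. The class comparisons are paired through this block, and the female and male groups were not tested against each other. Basal and luminal duct cells were not compared. Free RNA rests on few UMIs of the members, and 1 female library limits each statement on sex.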

Other observations

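A further 1127 epithelial cells (509 female, then 265 and 353 from the males) fell in clusters that were left unnamed. The largest was an acinar cluster of 685 cells led by immune genes. Another, of 408 deep cells, scored nearest to acinar, with Obp1b among its leading genes. The unnamed cells held 4040429, 873555 and 1135226 UMIs outside tear-product and mitochondrial genes, against 2504842, 3392197 and 3475876 in acinar-like cells. They were not part of the acinar-like class in any comparison. The unnamed cells held Krt8 at 147, 506 and 536 CPM and Krt18 at 392.04, 713 and 710.0 CPM. Krt5 stood at 8.41, 0 and 0.881 CPM and Krt14 at 13.4, 3.43 and 4.40 CPM.

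The female Tfrchi-like class of 80 cells held 163 CPM of Krt5 and 258 CPM of Krt17, where both male libraries held no Krt5. Without integration 4 of these 80 cells moved to the duct-like class, and they held 9 of the 17 Krt5 UMIs and 17 of the 27 Krt17 UMIs.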
